A study of Mus musculus with 192 samples.

Results

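The constitutive proteasome genes were taken as the genes whose symbol begins with Psma, Psmb, Psmc, Psmd or Psme followed by a digit and that had a start-site window within 1000 bp of an annotated RefSeq start, leaving out the interferon-inducible genes Psmb8, Psmb9 and Psmb10. This gave 40 of the 12499 genes with such a window. The rule works on names, so it also took in Psmc3ip, which encodes a recombination cofactor and no proteasome subunit, and Psme2b, a copy of Psme2. They were measured by scTSS-seq, a single-cell method that reads the 5′ ends of polyadenylated RNA, in mouse embryonic fibroblasts (MEFs, connective-tissue cells grown out of embryos) of strain C57BL/6. All cells received interferon-beta, a secreted antiviral protein, at 100 U/ml for 1 h, and 96 were labelled naïve and 96 pretreated. What the second group was pretreated with is not in the labels, nor is any animal, culture or plate. Each group was therefore treated as 1 sample, no difference was tested, nothing below has a replicate check, and all intervals are 95% intervals that cover counting error only.

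The proteasome is the protease that degrades most ubiquitin-tagged proteins in the cytosol and nucleus. Its 20S core is a barrel of outer alpha rings and inner beta rings, and the peptide-cutting sites lie on the beta subunits encoded by Psmb5, Psmb6 and Psmb7. A 19S cap with a ring of ATPases and a lid of non-ATPase subunits binds, unfolds and feeds in the substrate, while the PA28 and PA200 caps open the core without ubiquitin. Interferons are known to induce Psmb8, Psmb9 and Psmb10, whose products replace the catalytic subunits in the immunoproteasome and change which peptides are cut for presentation on MHC class I.

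After cells with under 10% of the median total were left out, 92 naïve and 85 pretreated cells remained. The kept cells had 305066 to 3857034 tags (reads) in the naïve group, with a median of 2305628, and 502374 to 13174313 in the pretreated group, with a median of 2650490. No 2 cells had equal totals, and each file held 1 cell. Of 12 fibroblast markers, 11 were listed in naïve and 10 in pretreated cells, with summed levels of 8134 and 9203 CPM (tags per 1000000 tags on the strand of any gene). Leukocyte markers summed to 28.6 and 35.2 CPM, with Ptprc and Adgre1 listed in neither group. Cd14 was listed in 15 naïve and 33 pretreated cells, and Cd68 in 8 and 3. Epithelial markers were at 0 in both groups. Endothelial markers summed to 0 and 4.53 CPM, and neural markers to 4.69 and 17.3 CPM. Of the neural markers, Map2 was listed in 0 naïve and 11 pretreated cells, and Tubb3 in 3 and 0. All 92 naïve cells had mitochondrial peaks, with 0.759% of their tags in peaks, while the pretreated files held none. The pretreatment and a difference in how the files of the groups were made cannot be told apart for any value below.

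Proteasome genes took nearly the same share of the transcriptome in both groups. They held 2266859 of 110130326 naïve gene tags, or 2.06% (2.056 to 2.061, exact binomial), and 3454419 of the 174823829 gene tags of pretreated cells, or 1.98% (1.974 to 1.978), a log2 ratio of the shares of -0.06. In single cells the share ran from 0.344% to 3.58% in naïve cells, with a median of 1.98%, and from 0.895% to 2.54% in pretreated cells, with a median of 1.94%. The ranges overlapped almost whole, and the naïve cells were the more spread. The log2 ratio turned to 0.11 when tags were scaled to all tags of the summed cells. It turned to 0.16 when windows at any distance from a start were counted, so its direction depends on the scaling and on the windows counted. The summed RNA levels of the 20S and 19S genes differed more between the groups than the share of all members. The most abundant genes weigh most in these sums, which do not measure the assembled particle. The 20S genes summed to 13807 CPM in the naïve and 10348 CPM in the pretreated group, and the 19S subunit genes, without the assembly chaperones, to 5497 and 6674 CPM. Per naïve cell, the 20S sum ran from 3072 to 21626 CPM with a median of 13166, and per pretreated cell from 4446 to 15041 CPM with a median of 10169. Across the 92 naïve cells the 20S and 19S subunit sums had a Spearman rho of 0.50, and across the 85 pretreated cells 0.38. Both sums of a cell share its denominator, and these correlations are descriptions.

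**Figure D1:**
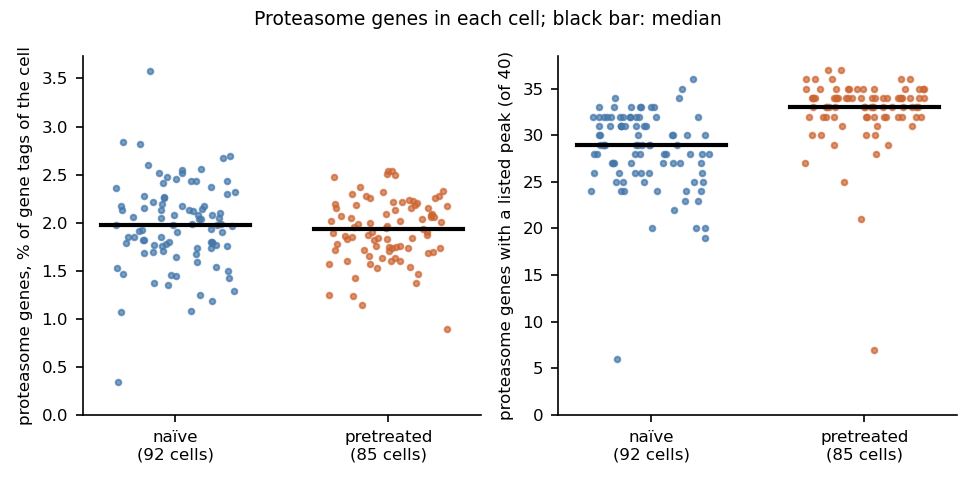
The left panel plots the share of a cell's gene tags (percent) that belongs to the 40 proteasome genes, and the right panel the number of these genes with a listed peak, with 1 point per cell and the median as a black bar. The medians of the share are 1.98% (92 naïve cells) and 1.94% (85 pretreated cells), and the median numbers of listed genes are 29 and 33.

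A level was compared between groups where the mean of the groups reached 25 CPM, which 36 of the 40 members did, and a gene was called when it differed at least 2-fold. Of the 36, 3 were higher in pretreated cells (8.33% of them, against 20.6% of all 3833 genes that passed the same minimum) and 5 were lower (13.9%, against 12.3% of all). The higher genes were Psme1, Psmd1 and Psmc5, and the lower ones Psmb3, Psmb5, Psma4, Psmd11 and Psma3. Members were more abundant than most genes, and the share of all genes called higher depended on level. At a minimum of 100 CPM, which 32 members and all the called ones reached, 14.3% of all genes were higher and 12.7% lower. Shares of all genes given below for fold counts are those at 25 CPM unless another setting is named. The share that was lower was near that of all genes, and the share that was higher was below it, so neither count sets the members apart. The median log2 ratio of the 36 was 0.18, and that of all genes 0.21, with 21 members (58.3%) above 0 against 59.6% of all genes. Relative to that all-gene shift, under median-of-ratios scaling, 2 of 36 members were higher and 6 lower, against 15.3% and 15.4% of all genes. With scaling to all tags of the summed cells 6 were higher and 4 lower, against 25.8% and 10.4% of all genes. Without the 6 members that have a near-identical copy of their 5′ end among annotated transcripts of other genes, 2 of 30 were higher and 2 lower. The shares of all genes stayed at 20.6% and 12.3%, because genes with a copy were not taken out of them. The sets are unlike, so these counts are not read as a difference from all genes. Because each tag marks a 5′ end, levels were not divided by gene length, and levels of different genes were set side by side on the CPM scale.

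**Figure D2:**
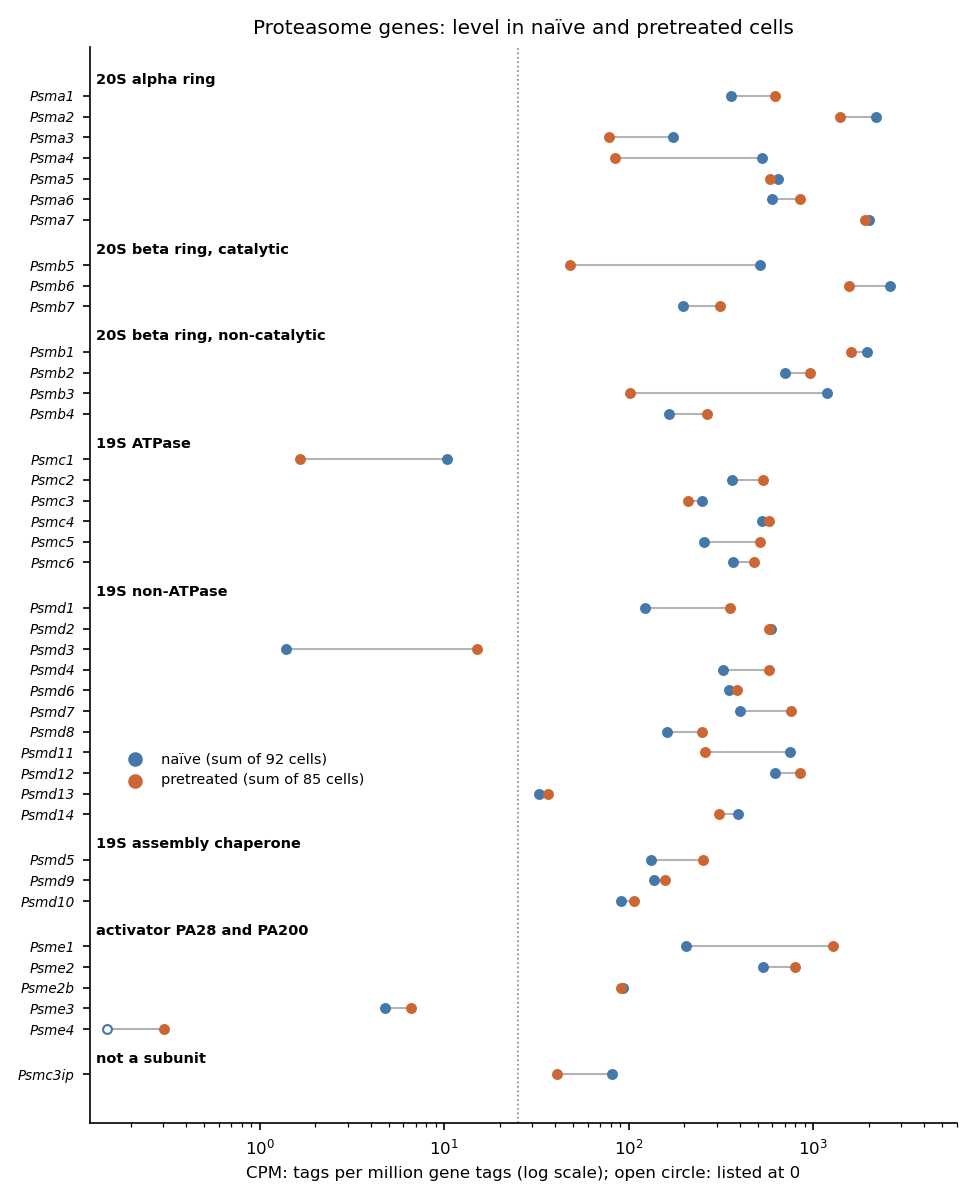
Each row is a proteasome gene, grouped by its place in the particle, with its level in CPM (log axis) in the sum of 92 naïve cells (blue) and of 85 pretreated cells (orange). The dotted line marks 25 CPM, under which a gene was not compared, and the open circle marks Psme4, listed at 0 in naïve cells.

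**Figure D3:**
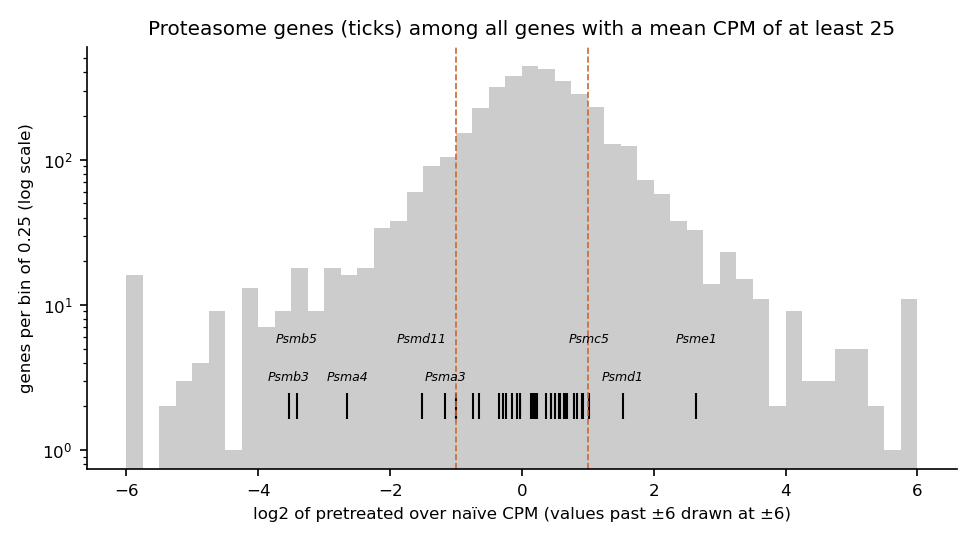
The grey histogram (log axis) shows the log2 ratio of pretreated over naïve CPM for 3833 genes with a mean of at least 25 CPM, and the ticks show the 36 proteasome genes among them. The dashed lines mark 2-fold, and the 5 named genes on the left and 3 on the right lie past them.

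Among the catalytic beta subunits, Psmb5 was lower in pretreated cells while Psmb6 and Psmb7 stayed within 2-fold. Psmb5, the beta5 subunit with chymotrypsin-like activity, had 0 to 1980 CPM in single naïve cells (median 446) and 0 to 240 CPM in pretreated cells (median 47.7). No pretreated cell reached the naïve median, and 62 of 92 naïve cells lay above the highest pretreated cell, although the ranges overlapped at their low ends. The summed naïve cells had 512 CPM (56370 tags) and the summed pretreated cells 47.9 CPM (8380 tags), and the log2 ratio of -3.42 (-3.45 to -3.38) put it at percentile 1.83 of all genes. An annotated near-identical copy of its 5′ end exists elsewhere in the genome, so its value is uncertain. Psmb6, the beta1 subunit with caspase-like activity, was the most abundant member in naïve cells and was listed in every kept cell. It had 220 to 5518 CPM in single naïve cells (median 2490) and 540 to 3056 CPM in pretreated cells (median 1442), with group levels of 2617 and 1564 CPM and a log2 ratio of -0.74. The pretreated cells lay in the lower part of the naïve range, with 81 of 85 under the naïve median. Psmb7, the beta2 subunit with trypsin-like activity, had 0 to 1241 CPM (median 108) in naïve and 0 to 884 CPM (median 284) in pretreated cells. Its group levels of 197 and 311 CPM gave a log2 ratio of 0.66, and its ranges overlapped throughout.

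The promoters of Psmb5 and Psmb6 are shown because each carries an antioxidant response element core, TGACNNNGC, the kind of element through which the transcription factor Nfe2l1 is known to act on proteasome genes. Sequences are from the RefSeq promoter table of build GRCm38.p6, from 150 bases before to 30 after the annotated start, 5′ to 3′ on the gene's strand. Capitals mark matches on either strand to this core, to the interferon-stimulated response element core (GAAA, any 2 bases, GAAA), to the gamma-activated sequence TTCNNNGAA or to the CCAAT box. Patterns were searched over 300 bases, the interferon and gamma-activated patterns can share letters, and a match is a description of letters and no evidence of binding. Psmb5 lies at chr14:54617966-54618145 on the minus strand and Psmb6 at chr11:70525207-70525386 on the plus strand.
Psmb5: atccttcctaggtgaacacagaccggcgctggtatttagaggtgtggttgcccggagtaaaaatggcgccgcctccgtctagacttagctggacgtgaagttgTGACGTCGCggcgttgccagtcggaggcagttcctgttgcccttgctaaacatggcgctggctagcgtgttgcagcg
Psmb6: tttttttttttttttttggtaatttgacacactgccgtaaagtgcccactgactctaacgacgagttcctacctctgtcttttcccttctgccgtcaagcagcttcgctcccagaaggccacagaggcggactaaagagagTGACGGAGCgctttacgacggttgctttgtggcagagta
The match begins 47 bases before the annotated start in Psmb5 and 9 bases before it in Psmb6. The table held 37 promoters of 34 members. The core occurred in 6 of the 37 (16.2%), those of Psmb5, Psmb6, Psmc6, Psmd9, Psmd12 and Psme4, and in 12.4% of all 32851 promoters. The interferon-stimulated core occurred in 4 of the 37 (10.8%: Psmb3, Psmd4, Psmd9 and Psme1) and in 3.44% of all promoters. A gamma-activated sequence occurred in that of Psmd2 alone among the 37 (2.70%) and in 8.30% of all promoters. CCAAT occurred in 13 of the 37 (35.1%) and in 37.4% of all promoters. Member promoters had a median GC content of 59%, against 52.7% for all promoters. Psmb7 and 5 other members were not matched in that table.

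The interferon-inducible counterparts, which are not members, stand beside them in the cell-by-cell plot. Psmb8, which replaces Psmb5, had naïve and pretreated levels of 28.2 and 510 CPM (log2 ratio 4.18), and was listed in 13 of 92 and 84 of 85 cells. Psmb9, which replaces Psmb6, had 67.4 and 328 CPM (2.28), and was listed in 16 and 79 cells. Psmb10, which replaces Psmb7, had 36.5 and 302 CPM (3.05), and was listed in 17 and 81 cells. The Psmb10 ratio turned to -0.93 when windows within 100 bp of the start were counted alone, which leaves out its leading window, 284 bp downstream in both groups. Together the interferon-inducible genes held 3.82% (3.76 to 3.88) of the tags of the 6 catalytic genes in naïve and 37.2% (37.1 to 37.3) in pretreated cells. Their share differed by site, at 91.4% of Psmb8 plus Psmb5, 49.2% of Psmb10 plus Psmb7 and 17.3% of Psmb9 plus Psmb6 in pretreated cells, against 5.21%, 15.6% and 2.51% in naïve cells. In single cells it ran from 0% to 62.1% with a median of 0% in naïve cells and from 0% to 74.7% with a median of 38.7% in pretreated cells. None of the 3 was listed in 56 of 92 naïve cells and 1 of 85 pretreated cell, and Psmb6 was still the most abundant of the 6 in pretreated cells at 1564 CPM.

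**Figure D4:**
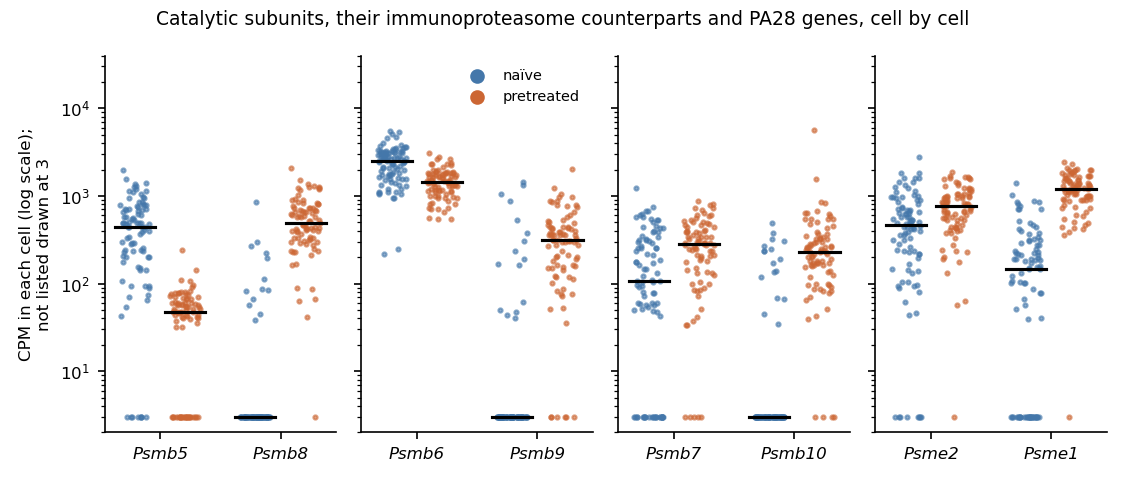
Each panel plots, on a log axis, the level in CPM of a constitutive catalytic gene and its interferon-inducible counterpart, or of the PA28 genes Psme2 and Psme1, with 1 point per cell (92 naïve, blue, and 85 pretreated, orange) and the median as a black bar. Cells with no listed peak are drawn at 3. The median of Psmb5 goes from 446 CPM (naïve) to 47.7 CPM (pretreated), and that of Psme1 from 148 to 1189 CPM.

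In the rest of the 20S core, 3 of 11 genes were lower in pretreated cells (27.3%, against 12.3% of all genes) and none was higher (against 20.6%). Of the non-catalytic beta subunits, Psmb3 was lower and Psmb1, Psmb2 and Psmb4 stayed within 2-fold. Psmb3, the beta3 subunit, had 0 to 4145 CPM in single naïve cells (median 888) and 0 to 843 CPM in pretreated cells (median 84.9). All 85 pretreated cells lay under the naïve median, and 48 naïve cells lay above the highest pretreated cell. Group levels of 1180 CPM (129968 tags) and 102 CPM (17804 tags) gave a log2 ratio of -3.53 (-3.56 to -3.51), the lowest of all members, at percentile 1.64 of all genes. No near-identical copy of its 5′ end was found. Psmb1, the beta6 subunit, was listed in every kept cell, with 1949 CPM in the naïve and 1600 CPM in the pretreated group. Psmb2, the beta4 subunit, had 702 and 954 CPM, and Psmb4, the beta7 subunit, 164 and 265 CPM.

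The alpha ring, whose subunits form the gate of the core, had a median log2 ratio of -0.14 over its 7 genes. Of the 7, 2 were lower and 0 higher, against 12.3% and 20.6% of all genes. Psma4 had 0 to 1692 CPM in single naïve cells (median 508) and 0 to 284 CPM in pretreated cells (median 65.9). Again no pretreated cell reached the naïve median, and 64 naïve cells exceeded the highest pretreated cell. Psma4 had group levels of 527 CPM (58053 tags) and 83.9 CPM (14672 tags), a log2 ratio of -2.65 (-2.68 to -2.62), and no near-identical copy was found for it. Psma3 had 0 to 853 CPM (median 85.9) in naïve and 0 to 576 CPM (median 45.3) in pretreated cells, which overlapped widely. Group levels of 174 and 77.8 CPM gave a log2 ratio of -1.16 (-1.19 to -1.13), which was -0.99 with scaling to all tags and -0.90 with windows at any distance, both short of 2-fold, and 2 near-identical copies make it uncertain. The abundant alpha genes stayed within 2-fold and were listed in every kept cell, namely Psma2 with naïve and pretreated levels of 2181 and 1395 CPM and Psma7 with 2000 and 1893 CPM. Psma2 has 2 near-identical copies, so its level is uncertain. Psma1, Psma5 and Psma6 had log2 ratios between -0.14 and 0.79.

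The promoters of the core genes past 2-fold are given so that their letters can be set beside those of the catalytic genes. Psmb3 lies at chr11:97703284-97703463, Psma4 at chr9:54950709-54950888 and Psma3 at chr12:70974473-70974652 (GRCm38.p6, plus strand).
Psmb3: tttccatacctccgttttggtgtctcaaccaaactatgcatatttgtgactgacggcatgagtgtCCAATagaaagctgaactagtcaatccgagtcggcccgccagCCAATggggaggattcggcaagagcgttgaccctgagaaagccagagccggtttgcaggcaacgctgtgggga
Psma4: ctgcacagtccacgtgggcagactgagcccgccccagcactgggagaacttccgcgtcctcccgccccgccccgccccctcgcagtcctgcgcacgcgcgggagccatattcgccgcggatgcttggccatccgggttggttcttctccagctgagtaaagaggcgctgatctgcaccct
Psma3: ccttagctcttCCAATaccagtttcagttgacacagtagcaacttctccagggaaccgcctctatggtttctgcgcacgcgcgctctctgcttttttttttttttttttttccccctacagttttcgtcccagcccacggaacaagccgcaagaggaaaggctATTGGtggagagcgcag
Psmb3 and Psma3 hold CCAAT boxes, and the stretch of Psma4 holds none of the patterns. Psmb3 also has an interferon-stimulated core on the minus strand, 163 bases before its start and so outside the printed stretch.

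In the 19S cap, 2 genes were higher and 1 was lower in pretreated cells among the 15 subunit genes compared (13.3% and 6.67%, against 20.6% and 12.3% of all genes). The ATPases, which unfold the substrate, had a median log2 ratio of 0.37 over the 5 that reached the minimum. Psmc5 had 0 to 1124 CPM in single naïve cells (median 204) and 0 to 1260 CPM in pretreated cells (median 441). Its ranges overlapped, with 75 of 85 pretreated cells above the naïve median. Psmc5 group levels of 254 and 515 CPM gave a log2 ratio of 1.02 (1.00 to 1.04), just past 2-fold, and 0.81 after median-of-ratios scaling. By the mean of the groups the most abundant ATPase gene was Psmc4, with naïve and pretreated levels of 526 and 576 CPM, followed by Psmc2 with 361 and 534 CPM and Psmc6 with 367 and 475 CPM. Psmc3 had 248 and 210 CPM. Psmc1 did not reach the minimum, with 10.3 CPM in naïve cells, listed in 5 of 92, and 1.65 CPM in pretreated cells, listed in 2 of 85.

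Among the non-ATPase subunits, Psmd1 was higher and Psmd11 lower, and the median log2 ratio of the 10 compared was 0.31. Psmd1, a large scaffold subunit of the base, had 0 to 695 CPM in single naïve cells (median 77.8) and 0 to 3688 CPM in pretreated cells (median 300). The pretreated cells sat higher but overlapped the naïve range, with 8 above the highest naïve cell. Its group levels of 122 and 354 CPM gave a log2 ratio of 1.53 (1.51 to 1.56), and it was listed in 53 of 92 naïve and 83 of 85 pretreated cells. Psmd11, a lid subunit, had 0 to 3660 CPM (median 536) in naïve and 0 to 768 CPM (median 189) in pretreated cells, and 33 naïve cells lay above the highest pretreated cell. Group levels of 743 and 260 CPM gave a log2 ratio of -1.51 (-1.53 to -1.50), with 1 near-identical copy that makes it uncertain. Psmd12 and Psmd7, both of the lid, had 620 and 843 CPM (log2 ratio 0.44, and 1.08 with windows at any distance) and 401 and 754 CPM, and Psmd2, the other large scaffold, 587 and 578 CPM. The ratios of Psmd4, Psmd6, Psmd8, Psmd13 and Psmd14 ran from -0.34 for Psmd14, a lid deubiquitinase, to 0.83 for Psmd4, a ubiquitin receptor. Psmd4 and Psmd7 passed 2-fold, at 1.00 and 1.08, with scaling to all tags of the summed cells. Psmd3 was not compared, at 1.39 CPM in naïve cells (2 of 92) and 15.1 CPM in pretreated cells (22 of 85).

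The promoters of the cap genes past 2-fold are shown for the same comparison. Psmc5 lies at chr11:106256035-106256214, Psmd1 at chr1:86064469-86064648 and Psmd11 at chr11:80428465-80428644 (GRCm38.p6, plus strand).
Psmc5: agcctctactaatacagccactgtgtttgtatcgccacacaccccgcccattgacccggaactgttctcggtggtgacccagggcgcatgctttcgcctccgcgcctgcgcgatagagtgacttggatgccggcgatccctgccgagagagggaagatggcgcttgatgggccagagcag
Psmd1: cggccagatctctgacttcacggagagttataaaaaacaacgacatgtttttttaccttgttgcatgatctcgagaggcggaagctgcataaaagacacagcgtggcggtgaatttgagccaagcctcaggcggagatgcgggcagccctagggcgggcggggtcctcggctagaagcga
Psmd11: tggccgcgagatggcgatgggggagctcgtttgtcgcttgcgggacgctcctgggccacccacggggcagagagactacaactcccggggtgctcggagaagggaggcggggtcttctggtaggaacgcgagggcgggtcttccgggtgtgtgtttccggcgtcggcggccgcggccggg
None of these stretches holds a match to a marked pattern. Psmd1 has a TATAAA in the searched promoter, 122 bases before the annotated start. TATAAA occurred in 3 of the 37 member promoters (8.11%) and in 13.6% of all promoters.

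The chaperones that assemble the 19S base stayed within 2-fold. Psmd5 had 133 CPM in the naïve and 253 CPM in the pretreated group (log2 ratio 0.93, and 1.10 with scaling to all tags), and was listed in 39 of 92 naïve and 78 of 85 pretreated cells. Psmd9 had 138 and 158 CPM, and Psmd10, also known as gankyrin, 91.2 and 107 CPM. Psmc3ip, which is no subunit, had 81.3 and 40.8 CPM, a log2 ratio of -0.99 that lay just inside 2-fold, and was -1.20 with median-of-ratios scaling and -1.12 without the highest cell of each group.

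Among the activator caps, Psme1 had the highest ratio of the 36 members compared, while its partner Psme2 stayed within 2-fold. Psme1 and Psme2 encode the alpha and beta subunits of PA28, a cap known to be induced by interferon. Psme1 had 0 to 1410 CPM in single naïve cells (median 148) and 0 to 2417 CPM in pretreated cells (median 1189). In all, 1 naïve cell exceeded the pretreated median, 84 of 85 pretreated cells exceeded the naïve median, and 27 lay above the highest naïve cell. Its group levels of 205 CPM (22572 tags) and 1284 CPM (224444 tags) gave a log2 ratio of 2.65 (2.63 to 2.67), at percentile 96.9 of all genes, and it was listed in 63 of 92 naïve and 84 of 85 pretreated cells. It has 2 near-identical copies, so the value is uncertain. Psme2 had 0 to 2779 CPM (median 461) in naïve and 0 to 1862 CPM (median 758) in pretreated cells, which overlapped throughout. Its group levels of 535 and 798 CPM gave a log2 ratio of 0.58 (0.56 to 0.59), so Psme2 exceeded Psme1 in naïve cells and the order was the opposite in pretreated cells. Psme2b, whose 5′ end matches Psme2 and whose value is therefore uncertain, had 92.5 and 90.4 CPM. Psme3, the nuclear PA28 gamma gene, had 4.78 CPM (4 of 92 cells) and 6.64 CPM (8 of 85), and Psme4, the PA200 gene, was listed at 0 in naïve cells and at 0.303 CPM in 1 pretreated cell. Neither reached the minimum for a comparison.

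The PA28 promoters are shown because only the first holds an interferon pattern. Psme1 lies at chr14:55578344-55578523 on the plus strand and the second of 2 RefSeq entries of Psme2 at chr14:55591072-55591251 on the minus strand (GRCm38.p6).
Psme1: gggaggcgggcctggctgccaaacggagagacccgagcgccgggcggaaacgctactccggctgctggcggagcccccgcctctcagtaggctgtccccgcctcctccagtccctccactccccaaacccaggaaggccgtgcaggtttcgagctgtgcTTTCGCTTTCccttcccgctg
Psme2: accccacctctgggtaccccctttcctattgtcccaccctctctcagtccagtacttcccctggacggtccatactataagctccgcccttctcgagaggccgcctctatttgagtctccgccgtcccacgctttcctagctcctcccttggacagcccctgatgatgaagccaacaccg
In Psme1 the capitals mark an interferon-stimulated core on the minus strand that begins 10 bases downstream of the annotated start. The Psme2 stretch holds none of the marked patterns.

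Proteasome genes were listed in more cells than most genes. A gene is listed in a cell when a peak of at least 20 tags per 1000000 was called, so a cell without it is not shown to lack the RNA. Over the 36 members the median share of cells was 88.04% in naïve and 97.6% in pretreated cells, against 34.8% and 60% over all 3833 genes, and thinning each cell to 552433 gene tags (76 naïve and 83 pretreated cells kept) gave 89.5% and 97.6% for the members. Because the peak minimum scales with the total, thinning does not test depth. The members were also more abundant, with a median of the mean level of 434 CPM against 85.6 CPM for all genes. In both groups, 14 of 36 members (38.9%) were listed in at least 90% of cells, against 10.6% of all genes. Among genes of at least 100 CPM the shares were 14 of 32 members (43.8%) and 23.6% of all, and Psma2, Psma7, Psmb1 and Psmb6 were listed in every kept cell. At least 20 percentage points more pretreated cells listed 11 members (30.6%), against 44.1% of all genes, and no member was listed in at least 20 points fewer, against 2.82% of all. A gene already listed in most naïve cells has little room to gain 20 points. With naïve medians of 88.04% for members and 34.8% for all genes, the lower share of members cannot be read as a smaller gain. The number of members listed per cell ran from 6 to 36 in naïve cells and from 7 to 37 in pretreated cells, with medians of 29 and 33. The cells with 6 and 7 members were those with the fewest genes of any kind in their groups, 506 and 633, against medians of 1967 and 2931.

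The start windows of the members lay in a narrow region in both groups, but the leading window often differed. All tags of a peak are placed at the distance of its window, so these are positions of windows. The shares are not matched for level, and whether they go with the higher level of the members was not tested. Within 100 bp of the annotated start lay 94.3% of naïve and 93.2% of pretreated member tags, against 80.6% and 81.3% for all genes. For 31 of 36 members, at least 90% of the tags of both groups lay within 50 bp of the leading naïve window, the 150 bp window with the most naïve tags (86.1%, against 55.6% of all genes). The leading window was the same in both groups for 11 members (30.6%), against 35.6% of all genes, and within 10 bp for 20 members (55.6%), against 59.6%. These shares lie near the background. The tag-weighted start lay at least 10 bp downstream in pretreated cells for 7 members (19.4%, against 18.7% of all) and at least 10 bp upstream for 5 (13.9%, against 26.5%), with a median shift of -0.57 bp. Among the 36, Psmb4, Psmc3 and Psme2b (8.33%, against 19.6% of all genes) had over 10% of the tags of a group more than 150 bp from the leading naïve window, as did Psmc1, Psmd3 and Psme3 below the minimum level.

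Psma2 led from the same window in both groups, 18 bp downstream of its annotated start (mm9, chr13:14705453-14705602), with 61.4% of naïve tags (52 cells) and 65.1% of pretreated tags (47 cells). Psmb6 led from 20 bp downstream in naïve cells (chr11:70338805-70338954, 53.2% of tags, 42 cells) and from 18 bp downstream in pretreated cells (chr11:70338803-70338952, 48.3%, 34 cells), and no naïve cell listed the latter. Psmb1 led from 12 bp upstream in naïve cells (66.5% of tags in 54 cells), a window listed in no pretreated cell, and from 20 bp upstream in pretreated cells (57.1% in 48 cells). Of these 3 abundant core genes, 1 thus kept its leading window and 2 led from windows a few bases apart.

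Members past 2-fold showed such differences too. In Psmb5, the window 8 bp upstream (mm9, chr14:55236766-55236915, minus strand, promoter) held 52348 naïve tags (72 cells) and 812 pretreated tags (6 cells), while windows 20 and 21 bp upstream held 39.5% and 36.6% of the pretreated tags. In Psmb3, the window 14 bp upstream (chr11:97564660-97564809) held 77916 naïve tags in 40 cells and 389 pretreated tags in 2 cells, and the window 11 bp upstream held 255 naïve tags in 1 cell and 7264 pretreated tags in 33 cells. Psmd11 led from 22 bp downstream in naïve cells (41570 tags, 31 cells) and from 16 bp downstream in pretreated cells (18729 tags, 30 cells). In Psma3 the window 59 bp downstream held 70.7% of naïve tags in 33 cells and was listed in no pretreated cell. Within 50 bp of that window lay 93.4% of naïve and 92.5% of pretreated Psma3 tags. Psme1 had naïve tags spread over 24 windows and 40.02% and 42.1% of its pretreated tags in windows 23 and 27 bp downstream (26 and 35 cells). Whether a shift in the window bears on the levels was not tested, and the levels here sum all windows of a gene.

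**Figure D5:**
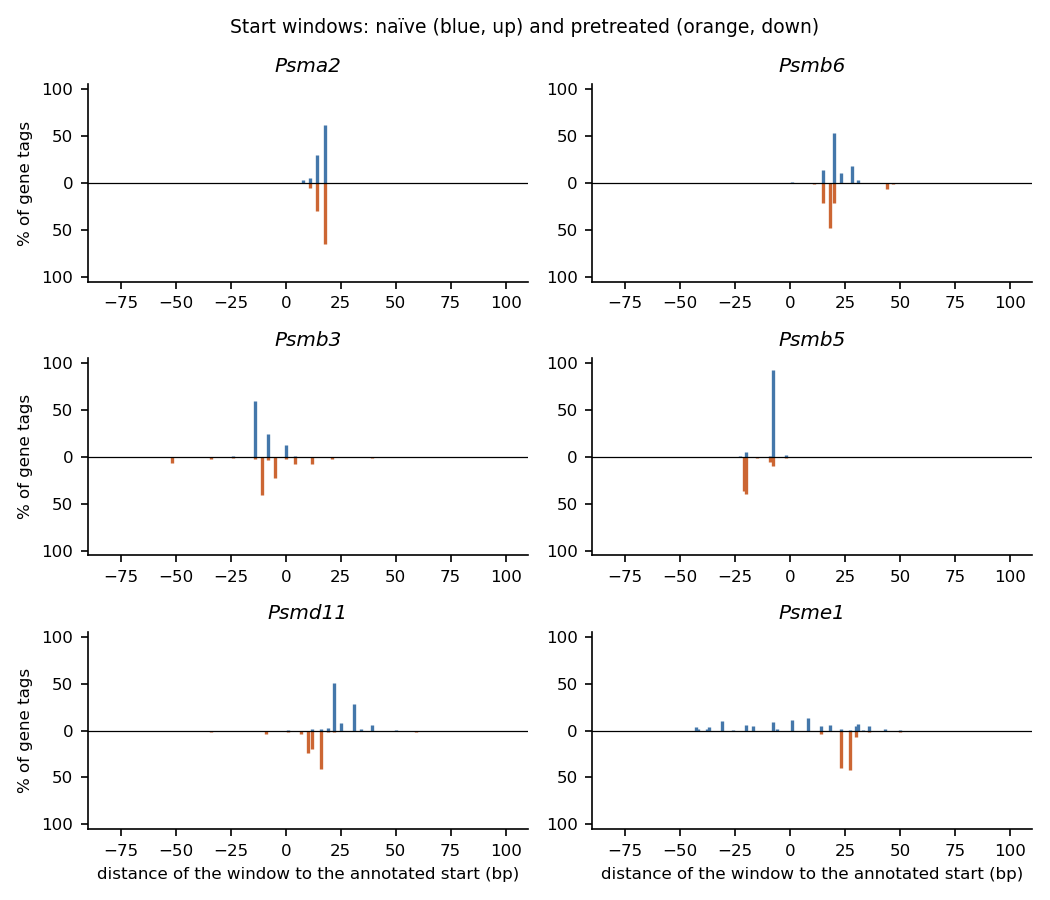
For 6 proteasome genes, bars show the percent of a gene's tags in each window by its distance from the annotated start in bp, naïve upwards in blue and pretreated downwards in orange. Psma2 has the same leading window at 18 bp in both groups, while Psmb5 leads from 8 bp upstream in naïve and 20 bp upstream in pretreated cells and Psme1 is spread in naïve and gathered at 23 and 27 bp in pretreated cells.

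Within peaks, tags of the members were less concentrated than those of all gene peaks, in a comparison not matched for level. The deposited focus ratio, the fraction of a peak's tags near its main position, had a median of 0.899 over 2663 naïve and 0.793 over 2882 pretreated member peaks, against 0.956 and 0.897 for all gene peaks. The members were more abundant, at a median of 434 CPM against 85.6 CPM for all genes compared. Whether the lower ratio of members goes with their level was not tested. A member's median ratio was at least 0.05 lower in pretreated cells for 30 of 36 members (83.3%), against 53.1% of all genes, or 27 of 32 (84.4%) against 67% among genes of at least 100 CPM. It was at least 0.05 higher for 2 (5.56%), Psma1 and Psme2b, against 1.96%. The ratio was 0.983 in naïve and 0.713 in pretreated cells for Psmb5 and 0.904 and 0.673 for Psmd2, while Psma2 stayed at 0.994 and 0.995. The lower ratio in pretreated cells was thus seen in member peaks and in gene peaks in general.

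Other genes of the pathway were taken from fixed lists. The counts of these short lists stand beside 20.6% of all genes higher and 12.3% lower. Of the 5 core assembly chaperones Psmg1, Psmg2, Psmg3, Psmg4 and Pomp, none was past 2-fold, with a median log2 ratio of 0.43. Among 3 further proteasome genes compared, Adrm1, a ubiquitin receptor of the cap, was higher, with naïve and pretreated levels of 128 and 331 CPM (log2 ratio 1.36), and Sem1 and Psmf1 were not past 2-fold. Of 3 regulator genes compared, Nfe2l1, a transcription factor that drives proteasome genes, was higher, with 31.4 and 65.6 CPM (1.06), while Nfe2l2 and Ngly1 were within 2-fold. The ubiquitin gene Ubb was lower, with 1159 and 45.1 CPM (-4.68). The deubiquitinases Usp14 and Uchl5 were within 2-fold. In the list of peptide transport and MHC class I genes, 2 of 3 compared were higher, B2m with 464 and 3753 CPM (3.02) and Tap1 with 3.98 and 65.7 CPM (4.04).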

How the data were processed

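Deposited peak lists of single cells, 1 file per cell, were read with a deposited table of 553094 windows of 150 bp annotated with RefSeq genes. HOMER called the peaks cell by cell in its start-site mode, per the file headers, on each strand, with a width of 150 bp, at least 300 bp apart and a minimum of 200 tags per 10000000. Per the file headers, the deposited signal gives the tags of a peak per 10000000, and it was turned back into tags with the header total, which gave all 1082504 peaks whole tags within 0.1 or the rounding of the value. The deposited focus ratio is a fraction from 0 to 1. Bowtie2, HOMER and mm9 are named per the submitters' processing notes, and the read filters are not given in the sources used here. No molecular identifiers are named, so tags are reads.

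A peak went to the window starting within 2 bp of its own start and to that window's gene when it lay on the gene's strand. The strand came from GENCODE vM21 or RefSeq by symbol, for 12421 of 12499 genes. Cells with under 10% of the median total (230563 tags) were left out, 4 naïve and 11 pretreated. CPM is tags per 1000000 gene tags of the summed cells, and 0.5 tag was added to both sums before the log2 ratio of pretreated to naïve was taken. Genes with a mean of at least 25 CPM were compared and called at 2-fold. Shares carry exact binomial (Clopper-Pearson) and ratios exact conditional intervals at 95%. No count model was fitted because each group is 1 sample. Copies were transcripts of GENCODE vM21 with at least 95% identity over at least 50 of the first 100 bases (BLAST 2.17.0). Scripts used Python 3.11.15, numpy 2.4.6, pandas 2.3.3 and scipy 1.17.1 and were tested on simulated data. Another 2 matrices with 384 value columns without names, and 2 further annotation tables, were not used here.

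Members past 2-fold, the 3 most abundant of each role, the catalytic genes with their inducible counterparts and the activators were named by rule. The members, gene lists and rules were chosen with earlier results of these data known. Some genes of the pathway lists are not reported here.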

Additional observations from a re-analysis of the deposited data

Results flagged for a closer look

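The windows of the proteasome genes also held tags on the strand opposite to the gene, which no comparison above uses. They came to 4519 tags in naïve cells, over 14 genes and 31 cells, and to 8391 tags in pretreated cells, over 18 genes and 30 cells. This was 0.199% and 0.242% of the tags in these windows, against 3.37% and 3.34% in the windows of all genes. By the sum of the groups, the genes with the most such tags were Psmd5 with 1414 in naïve and 1686 in pretreated cells and Psma6 with 212 and 1892. They are listed here as signal in tags outside the comparisons, and in both groups their share was below that of all genes.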

How the results depend on the processing

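There were 12 alternatives planned and 2 added after seeing the data. The log2 ratio of the shares (-0.06) was 0.11 with scaling to all tags of the summed cells and 0.16 with windows at any distance, both of the opposite sign. It was -0.040 with cells weighted equally, -0.087 with windows within 100 bp, -0.06 (-0.0553 against -0.0589) with both strands and -0.094 without the highest cell of each gene. The median log2 ratio (0.18) was -0.023 with median-of-ratios scaling, the opposite sign, which removes the all-gene median by construction. It was 0.35 with scaling to all tags, 0.34 with cells weighted equally, 0.22 within 100 bp, 0.33 at any distance, 0.28 at a minimum of 100 CPM, 0.30 without the 6 members that have a copy and 0.21 without Psmc3ip and Psme2b. The count of higher genes (3) was 6 with scaling to all tags and 5 at any distance, and that of lower genes (5) was 2 without members with a copy, which drops Psmb5, Psmd11 and Psma3. The difference in the median focus ratio (-0.106) was -0.131 within 100 bp and -0.0785 at any distance. Of 87 values of genes past 2-fold, 86 kept their sign and 5 fell under 2-fold, 8 values of genes within 2-fold passed it, and Psmb10 reversed to -0.93 within 100 bp. The cause of the other shifts was not tested. No paired analysis was possible because the cell number only names a cell and no result comes from a test. The peak minimum limits what a missing peak means, and with 1 sample per group no spread between cultures is known.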
